A study of Macaca fascicularis with 38 samples.

Results

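The 3 control macaques of cohort 9 each gave a biopsy of prefrontal cortical area 46 at 2 times, and gene expression in the second biopsy was compared with that in the first. The animals are named X10197, X10198 and X10204 after their columns in the deposited table, and their 6 libraries were taken by the rule that the table header reads control and cohort 9. They are 6 of the 32 libraries in the table and of the 38 samples in the labels. The study followed cynomolgus macaques (Macaca fascicularis) through voluntary ethanol drinking and sampled brain tissue by RNA sequencing before and after it.

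The libraries of interest are the second biopsies of the 3 controls, marked after in the header, and they are set against the first biopsies of the same animals, marked before. For comparison, 5 drinkers of cohort 9 gave 10 libraries and 3 controls of cohort 13 gave 6. Ethanol stands as the treatment of all samples in the labels, controls included, whereas the header marks these animals as controls, and the header was followed here. The 16 libraries of cohort 9 carry 1 RNA code in their titles. The labels used here give no genotype, age or agent other than ethanol for these animals, and neither do the sources used here give the interval between biopsies. Each animal served as its own reference, so that the question is what differs between biopsies of animals without ethanol.

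Area 46 lies in the dorsolateral prefrontal cortex and holds excitatory projection neurons, several classes of GABA-releasing interneuron, glia and vessels. In neurons, synaptic activity and growth factors act through the ERK kinases and CREB to switch on immediate early genes within minutes, and later genes such as neurotrophins and the inhibitors that shut the same pathway down, among them the dual specificity phosphatases (DUSP) and the Sprouty proteins (SPRY). Levels of clock genes also follow the time of day in most tissues, and a surgical biopsy can carry blood cells and the early response of microglia and vessels to injury.

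In the 6 libraries, between 18.5 and 23.4 M reads were assigned to genes and between 23508 and 24012 genes were above 0. Expression is given in TPM, a level of transcripts per length that is scaled to the same total in every library. SLC17A7, the vesicular glutamate transporter of cortical excitatory neurons, stood at 516 to 614 TPM in second biopsies and 410 to 542 TPM in first biopsies. GABRA6, a marker of cerebellar granule cells, stayed at or below 0.134 TPM in second and 0.291 TPM in first biopsies, and of the 12 markers of other brain regions 3 passed the filter on low values. The 13 mitochondrially encoded genes took 38.1%, 41.2% and 43.6% of the TPM in the second biopsies of X10197, X10198 and X10204, against 50.6%, 46.2% and 49.5% in their first biopsies. The share was 41.0% ± 2.75 in second and 48.8% ± 2.28 in first biopsies (SD, n = 3 each), lower in 3 of 3 animals. With 3 pairs an exact sign-flip permutation test cannot give a 2-sided p below 0.25.

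The first biopsy of X10204 stood apart. It held 308 TPM of S100A9, a calcium-binding protein of neutrophils and monocytes, against 14.1 and 39.8 TPM in the first biopsies of X10197 and X10198, and 219 TPM of the immediate early gene FOS, against 22.0 and 27.8 TPM. Its HBB level, a measure of red blood cells, was 10023 TPM, against 674 and 1658 TPM in the other first biopsies, and the second biopsy of the same animal held 8420 TPM. The change without this animal is given for some of the results that turn on it, and their number is given with the calls.

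The typical gene was higher in the second biopsy of X10197 and X10198 and nearly level in X10204. A change is the difference in log2(TPM + 1), second minus first biopsy, and genes with a mean of at least 1 TPM over the cohort 9 libraries were tested, 15685 in number. The median change was 0.45 in X10197, 0.23 in X10198 and 0.01 in X10204, and 81.7%, 77.2% and 51.5% of the genes were higher. By a log2 change of 1 or more, 2082 genes were higher in X10197, 378 in X10198 and 46 in X10204, while 38, 41 and 436 were lower. With the mitochondrially encoded genes left out of the TPM, the medians became 0.18, 0.12 and −0.13. Across genes, the changes of X10197 and X10198 had a Pearson r of 0.65, and those of X10204 had r of 0.28 and 0.20 with them (15685 genes, a description, since the libraries of an animal share depth and scale). X10204 was most like X10200, a drinker of the same cohort, with r of 0.69. X10197 was also most like a drinker, X10201, with r of 0.76, and X10198 had r of 0.64 with X10201. The overall median change was 0.24, and gene lists are described below relative to the median of all genes in the same pair.

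**Figure D1:**
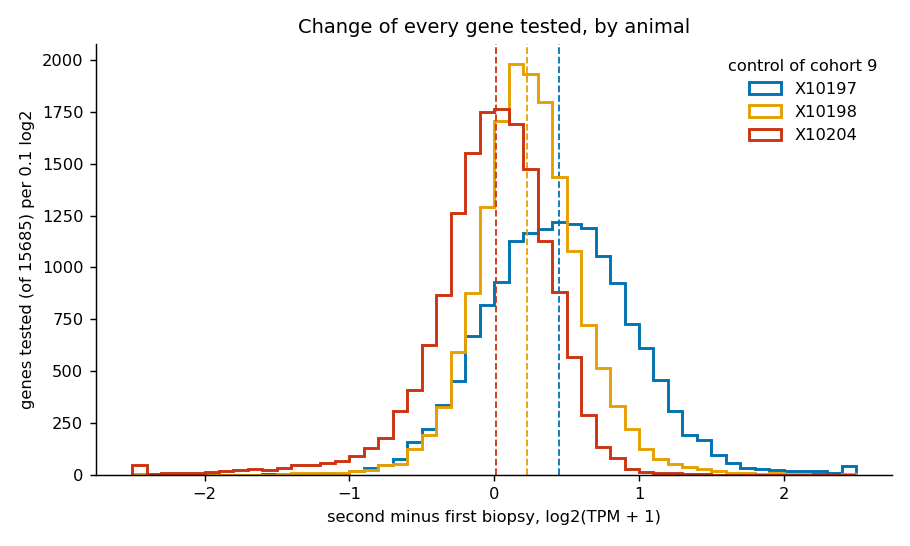
Change of every gene tested between biopsies (log2(TPM + 1), second minus first) in each of the 3 control animals, as the number of genes per 0.1 log2, with the median of each animal as a dashed line. The medians stand at 0.45, 0.23 and 0.01, and values beyond the axis are drawn in the outermost bins.

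Few genes passed the test over all genes. Fitted to the 16 cohort 9 libraries with animals as blocks, limma-trend called 8 genes higher (0.051% of those tested) and 7 lower (0.0446%) at a Benjamini-Hochberg adjusted p below 0.05. Many more lay just above that threshold. At an unadjusted p below 0.05 there were 4526 higher (28.9%) and 315 lower (2.01%), at an adjusted p below 0.06 there were 38 (0.242%) and 13 (0.0829%), and at an adjusted p below 0.1, a threshold added after the values were seen, 2542 (16.2%) and 132 (0.842%). Without X10204, 2906 genes were called higher and 55 lower, without X10198 the counts were 7 and 6, and without X10197 they were 1 and 0. The counts without X10204 are 18.5% and 0.35% of the genes tested. Of the 88 genes named here without a call, 49 were called without X10204, 46 of them higher and 3 lower, with changes between −1.46 and 2.60. With the medians of the libraries set equal, 21 genes were higher and 32 lower. A gene without a call is therefore not shown to have stayed level.

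A gene that restrains ERK signalling gave the largest rise among the calls. DUSP4, a nuclear phosphatase that inactivates ERK and related kinases, had 12, 9.20 and 10.9 TPM in the second biopsies of X10197, X10198 and X10204, against 1.15, 1.02 and 1.43 TPM in their first biopsies. The groups did not overlap, and for this gene and those below the share of all genes without overlap was not counted. The rise was 5.31-fold on the scale of TPM + 1 (log2 2.41 ± 0.18 SE, limma adjusted p = 0.000229). The values rest on 647, 437 and 721 reads in second biopsies and 70, 67 and 81 reads in first biopsies. DUSP4 kept its call with each animal left out in turn.

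SPRY4, a Sprouty protein that blocks signalling from growth factor receptors to ERK, had 13.9, 11 and 7.96 TPM in second biopsies and 2.39, 2.17 and 3.01 TPM in first biopsies. It rose 3.34-fold (log2 1.74 ± 0.23 SE, limma adjusted p = 0.0200), with the smallest change in X10204, and its call was lost without X10197 (adjusted p = 0.297) and without X10198 (adjusted p = 0.112). SPRY2, its relative, had 39.1, 36.5 and 30.6 TPM in second biopsies against 12.9, 14.2 and 18.6 TPM in first biopsies, a log2 change of 1.17 with a limma adjusted p of 0.0510. DUSP6, a cytoplasmic ERK phosphatase chosen after its values were seen, had 34.9, 33.6 and 25.9 TPM in second biopsies and 4.94, 4.71 and 18.5 TPM in first biopsies. Its first biopsy of X10204 was higher than the others, and its change was 2.60 without that animal (limma adjusted p = 0.0054).

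Of the 18 ERK feedback inhibitors and targets, all tested, 2 were called higher and 0 lower by limma, and 12 were higher (28.9% of all genes) and 1 lower (2.01% of all genes) at an unadjusted p below 0.05. In 3 of 3 pairs 13 members were higher, a share to be read against 40% of all genes, and 1 was lower. Relative to all genes, their median change was 0.52 in X10197, 0.60 in X10198 and 0.43 in X10204, an even shift across the animals.

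A pair of clock repressors rose in every animal. PER2, a component of the repressor complex of the circadian clock, had 18.2, 14.7 and 12.3 TPM in second biopsies and 4.06, 5.07 and 3.95 TPM in first biopsies. The rise was 2.98-fold (log2 1.57 ± 0.17 SE, limma adjusted p = 0.00503). BHLHE40, which represses genes driven by CLOCK and ARNTL and is also induced by neuronal activity, had 157, 102 and 104 TPM in second biopsies and 32.4, 42.8 and 45.2 TPM in first biopsies. It rose 2.94-fold (log2 1.56 ± 0.19 SE, limma adjusted p = 0.0110). Without X10197 both had an adjusted p of 0.0530.

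The clock list as a whole did not move so evenly. Of its 20 symbols 18 were tested, 2 were called higher and 0 lower, 9 were higher at an unadjusted p below 0.05 (28.9% of all genes), and 9 were higher in 3 of 3 pairs (40% of all genes). Its median relative to all genes was 0.39 in X10197, 0.01 in X10198 and 0.11 in X10204. NR1D2, a nuclear receptor that represses clock activators, had 80.9, 66.5 and 46.4 TPM in second biopsies against 25.4, 38.8 and 32 TPM in first biopsies (log2 0.97, limma adjusted p = 0.0686). NR1D1, its close relative, had 56.5, 50.7 and 40.0 TPM against 28.8, 46.2 and 23.8 TPM in first biopsies, and those groups overlapped (log2 0.60, limma adjusted p = 0.0766). The sources used here do not give the clock time of the biopsies.

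The other called rises were GPR3, TRIB2, KLF10 and FAM212B. GPR3, a receptor that activates adenylyl cyclase without a known ligand, had 9.74, 7.76 and 8.54 TPM in second biopsies and 3.23, 3.49 and 3.30 TPM in first biopsies (log2 1.15 ± 0.17 SE, limma adjusted p = 0.0391). TRIB2, a Tribbles pseudokinase that acts on MAP kinase signalling and protein degradation, had 47.5, 47.5 and 26.6 TPM in second biopsies and 17.4, 18.6 and 17.3 TPM in first biopsies (log2 1.10 ± 0.18 SE, limma adjusted p = 0.0450). First biopsies were close to each other for both genes, and the second biopsy of X10204 was the lowest of the 3 for TRIB2.

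KLF10, a zinc finger transcription factor induced by TGF-beta, had 18.9, 15.9 and 14.1 TPM in second biopsies and 4.97, 9.81 and 5.57 TPM in first biopsies (log2 1.19 ± 0.18 SE, limma adjusted p = 0.0430). FAM212B, an inhibitor of the kinase PAK4, had 30.3, 33.6 and 26.0 TPM in second biopsies and 12.9, 15.5 and 14.7 TPM in first biopsies (log2 1.01 ± 0.15 SE, limma adjusted p = 0.0391). KLF10 and FAM212B lost their calls when library medians were set equal, and GPR3, TRIB2, KLF10 and FAM212B lost theirs when the mitochondrially encoded genes were left out of the TPM.

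GPR3 and TRIB2 stand in a list of 15 delayed activity and neurotrophic genes, of which 2 were called higher and 11 were higher (28.9% of all genes) and 0 lower at an unadjusted p below 0.05. In 3 of 3 pairs 12 were higher (40% of all genes). The list's median relative to all genes was 0.73, 0.67 and 0.58 in X10197, X10198 and X10204, the highest mean of the 34 lists. SIK1, a kinase that restrains CREB co-activators, had 11.3, 8.63 and 8.50 TPM in second biopsies against 2.56, 2.19 and 5.06 TPM in first biopsies (log2 1.34, limma adjusted p = 0.0630).

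The 7 lower calls include a pair of metabolic enzymes. PDK4, a kinase that shuts off pyruvate dehydrogenase and is induced by fasting and glucocorticoids, had 3.99, 5.29 and 7.82 TPM in second biopsies and 11.3, 11.3 and 23.3 TPM in first biopsies. It fell to 0.422 of the first-biopsy level on the scale of TPM + 1 (log2 −1.25 ± 0.18 SE, limma adjusted p = 0.0301). SDS, serine dehydratase, had 12.6, 20.4 and 22.9 TPM in second biopsies and 37.9, 46.4 and 54.9 TPM in first biopsies (log2 −1.30 ± 0.18 SE, limma adjusted p = 0.0246). Neither gene's groups overlapped, and the share of all genes without overlap was not counted.

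LFNG, a glycosyltransferase that modifies Notch receptors, had 15.3, 19.5 and 15.3 TPM in second biopsies and 35.4, 34.1 and 28.7 TPM in first biopsies (log2 −0.94 ± 0.15 SE, limma adjusted p = 0.0431). APOC1, an apolipoprotein, had 7.33, 15.5 and 37.5 TPM in second biopsies and 17.2, 44.2 and 75.9 TPM in first biopsies (log2 −1.19 ± 0.17 SE, limma adjusted p = 0.0356). For APOC1 the animals differed more than the biopsies, so that the groups overlapped while each animal fell.

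CXCL8, the chemokine that attracts neutrophils, gave the largest fall among the calls. It had 0.24, 0.272 and 0.586 TPM in second biopsies of X10197, X10198 and X10204, against 7.26, 2.22 and 38.0 TPM in their first biopsies (log2 −2.90 ± 0.45 SE, limma adjusted p = 0.0431). These are 4, 4 and 12 reads in second biopsies and 137, 45 and 665 reads in first biopsies. The log2 change was −2.04 without X10204 and −3.68 without X10198, and the call was lost without X10197 (adjusted p = 0.343). C3AR1, the receptor for complement C3a on microglia and other myeloid cells, had 3.14, 2.32 and 2.20 TPM in second biopsies and 9.85, 4.61 and 9.71 TPM in first biopsies (log2 −1.30 ± 0.21 SE, limma adjusted p = 0.0450). It lies outside the rule for named genes and was chosen after its values were seen. The remaining lower call has no gene symbol in the table. Of the 14 called genes with a symbol, DUSP4 alone was called without X10197, and DUSP4, PER2, BHLHE40, KLF10, CXCL8 and C3AR1 were called without X10198.

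**Figure D2:**
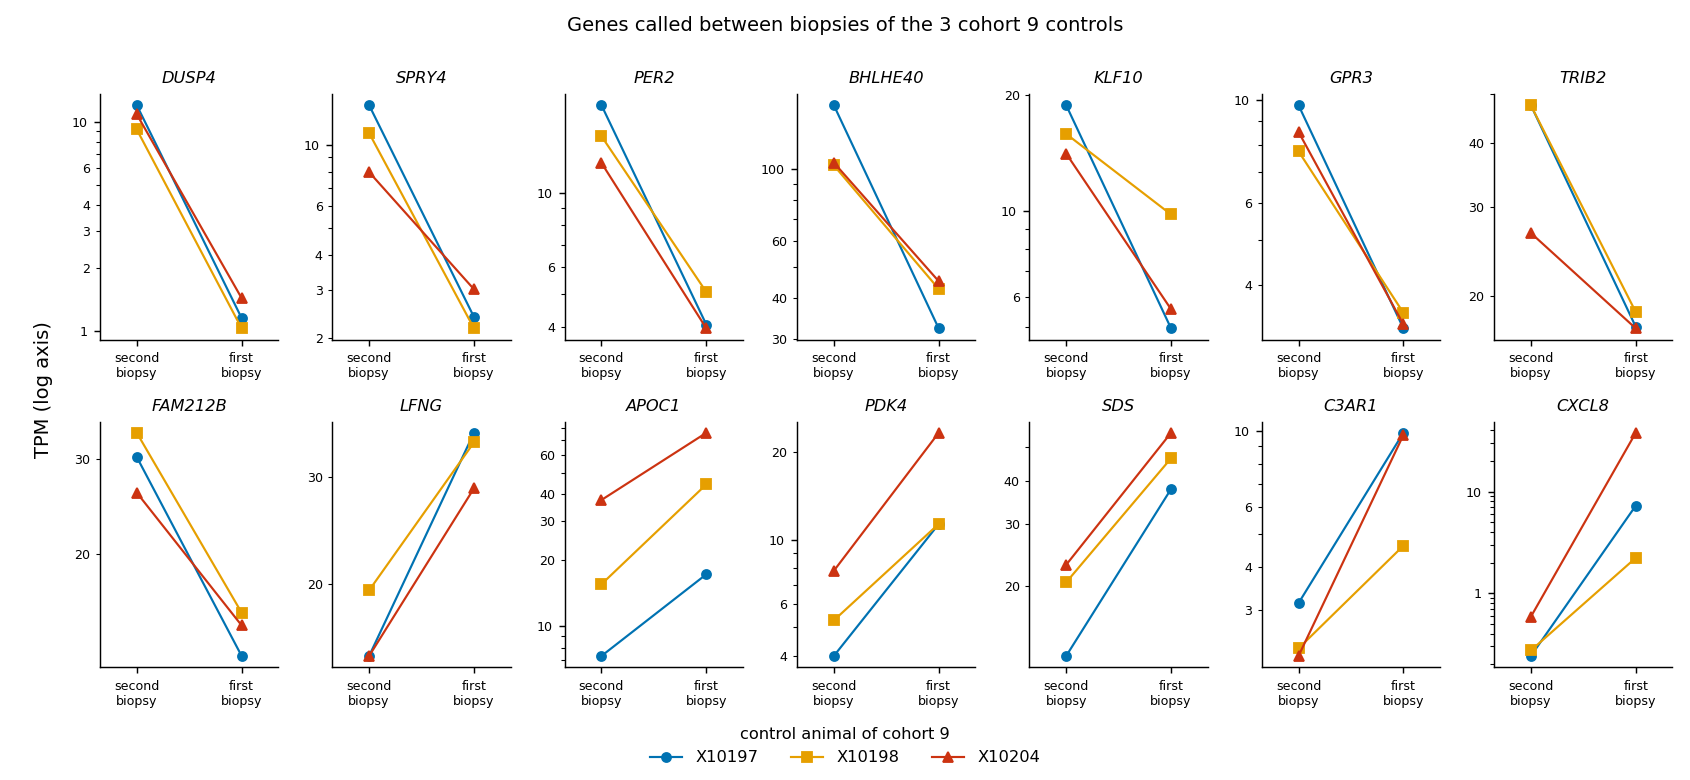
TPM on a log axis of the 14 called genes with a symbol, in the second biopsy (left) and first biopsy (right) of each of the 3 control animals, with a line per animal. In every panel the 3 lines run in the same direction, and the panel of APOC1 shows animals further apart than biopsies.

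Immediate early genes went opposite ways in the animals. Of 19 tested members, 18 were higher in the second biopsy of X10197 and of X10198, and 18 were lower in that of X10204. The median relative to all genes was 0.16 in X10197, 0.99 in X10198 and −0.91 in X10204, and 0 members were called. At an unadjusted p below 0.05, 3 were higher and 0 lower, against 28.9% and 2.01% of all genes. FOS, the founding member of the AP-1 family, had 31.4, 169 and 33.4 TPM in second biopsies and 22.0, 27.8 and 219 TPM in first biopsies, so that 1 second and 1 first biopsy stood far above the rest. Without X10204 its change was 1.53 with a limma adjusted p of 0.0376, against 0.13 with a limma adjusted p of 0.912 in all 3 animals.

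EGR1, a zinc finger factor induced by ERK, had 109, 168 and 90.9 TPM in second biopsies and 36.1, 37.5 and 138 TPM in first biopsies (log2 1.03, limma adjusted p = 0.0942). NR4A1, an orphan nuclear receptor, had 32, 43.2 and 24.4 TPM in second biopsies and 12.4, 13.5 and 42.0 TPM in first biopsies. NR4A3, of the same family, had 4.25, 3.91 and 3.51 TPM in second biopsies and 0.616, 0.784 and 1.75 TPM in first biopsies, without overlap (log2 1.29, limma adjusted p = 0.0510). It was the member that was higher in 3 of 3 pairs. Without X10204 the changes of EGR1, NR4A1 and NR4A3 were 1.85, 1.46 and 1.58, and limma called all 3 (adjusted p = 0.00248, 0.00311 and 0.00983).

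Leukocyte markers were lower in most second biopsies, by an amount that differed between animals. Of 16 markers 11 were tested and 0 were called. At an unadjusted p below 0.05, 0 were higher and 3 lower, against 28.9% and 2.01% of all genes. In 3 of 3 pairs 7 were lower, to be read against 7.68% of all genes. The median relative to all genes was −0.76 in X10197, −0.92 in X10198 and −2.93 in X10204. Their summed level ranged from 27.5 to 45.5 TPM in second biopsies and from 51.0 to 648 TPM in first biopsies, and no member was at 0 in all 6 libraries. S100A9 had 1.62, 1.47 and 7.10 TPM in second biopsies and 14.1, 39.8 and 308 TPM in first biopsies (log2 −3.94, limma adjusted p = 0.0708). S100A8, its partner, had 0.304, 1.03 and 5.31 TPM in second biopsies and 4.16, 17.8 and 128 TPM in first biopsies. In bulk tissue, fewer cells of a type and less RNA per cell cannot be told apart.

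The cytokine and NF-kB list moved with them, with 1 of 13 tested members called lower (CXCL8, beside 0.0446% of all genes). At an unadjusted p below 0.05, 6 were lower (2.01% of all genes), and 6 were lower in 3 of 3 pairs (7.68% of all genes). The list's median relative to all genes was −0.57, −0.58 and −1.66. TNF, a cytokine of activated microglia and macrophages, had 0.268, 1.27 and 0.327 TPM in second biopsies and 6.16, 2.06 and 9.73 TPM in first biopsies (log2 −1.98, limma adjusted p = 0.0520). CCL2, which attracts monocytes, had 3.43, 0.776 and 1.11 TPM in second biopsies and 12.1, 5.64 and 37.1 TPM in first biopsies (log2 −2.55, limma adjusted p = 0.0698). The part of leukocytes in these values was not tested. First biopsies of X10197, X10198 and X10204 held 14.1, 39.8 and 308 TPM of S100A9. In the same order, CXCL8 differed between biopsies by log2 −2.74, −1.34 and −4.62, and TNF by log2 −2.5, −0.433 and −3.02.

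**Figure D3:**
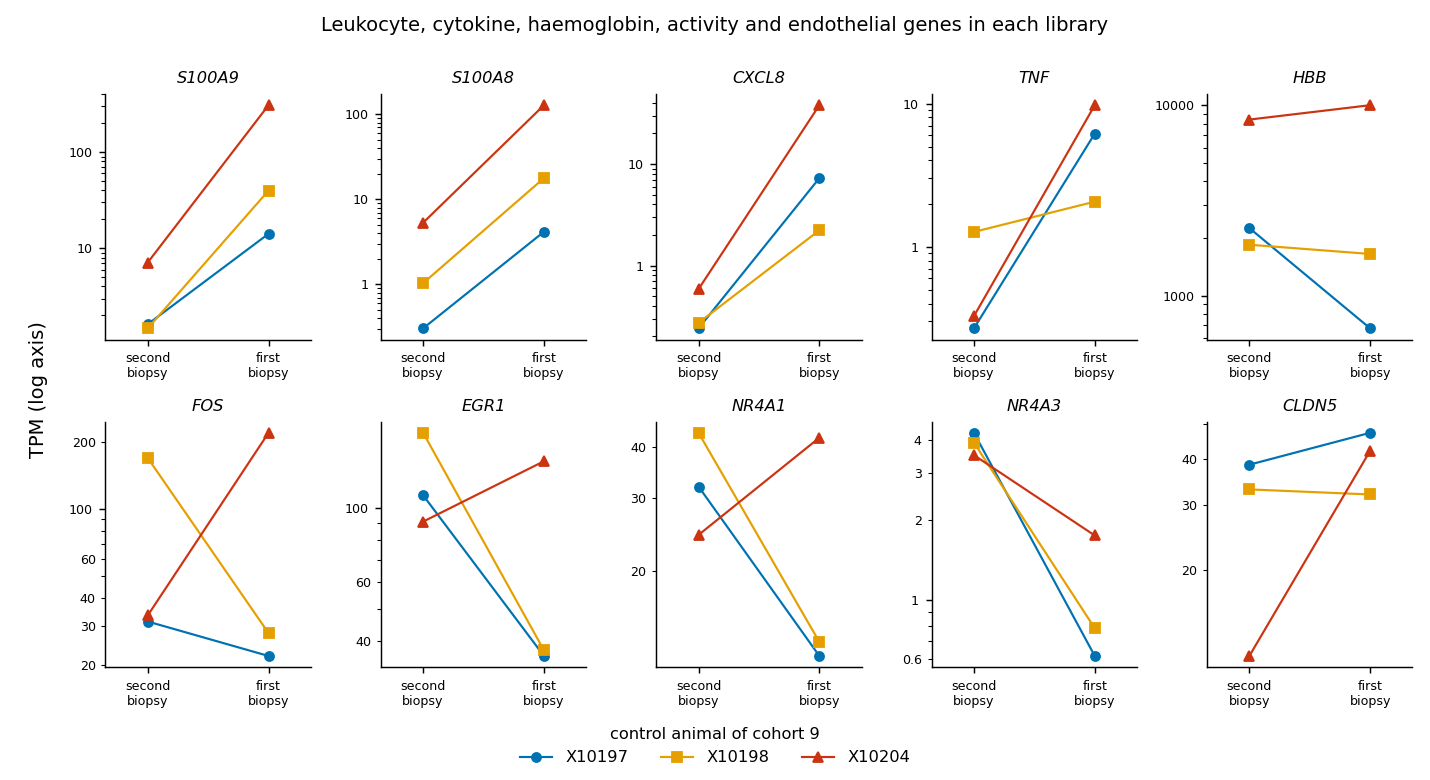
TPM on a log axis of leukocyte (S100A9, S100A8), cytokine (CXCL8, TNF), haemoglobin (HBB), activity (FOS, EGR1, NR4A1, NR4A3) and endothelial (CLDN5) genes in the second (left) and first (right) biopsy of each control animal. The first biopsy of X10204 was the highest of the 6 libraries for S100A9 (308 TPM), CXCL8 (38.0 TPM), HBB (10023 TPM) and FOS (219 TPM).

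Red blood cell markers showed no shared direction. HBB had 2268, 1854 and 8420 TPM in second biopsies and 674, 1658 and 10023 TPM in first biopsies (log2 0.55 ± 1.03 SE, limma adjusted p = 0.734), and 3 of 6 listed genes in the table were tested. Their summed level was 1860 to 8445 TPM in second and 676 to 10052 TPM in first biopsies.

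Neuronal lists lay slightly above all genes in most animals, and 0 of their members were called. Of 13 tested markers of excitatory neurons and layers, 8 were higher (28.9% of all genes) and 0 lower at an unadjusted p below 0.05, with medians relative to all genes of 0.45, 0.07 and 0.27. NEUROD6, a transcription factor of excitatory cortical neurons, had 48.3, 76.5 and 32.4 TPM in second biopsies and 10.1, 18.0 and 17.6 TPM in first biopsies (log2 1.67, limma adjusted p = 0.0510). SLC17A7 itself had 532, 614 and 516 TPM in second biopsies and 440, 542 and 410 TPM in first biopsies, a log2 change of 0.26 ± 0.14 SE that turned to −0.02 when library medians were set equal. SLC17A6, a second vesicular glutamate transporter, and PCP4, a calmodulin-binding protein, had log2 changes of 0.98 and 0.84 (limma adjusted p = 0.0708 for each).

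Inhibitory neuron markers were close to all genes, with medians relative to them of 0.20, 0.12 and 0.14. Of 14 members 7 were higher (28.9% of all genes) and 0 lower (2.01% of all genes) at an unadjusted p below 0.05. GAD1, which makes GABA, had 154, 114 and 101 TPM in second biopsies and 89.6, 89.2 and 88.5 TPM in first biopsies (log2 0.44 ± 0.15 SE, limma adjusted p = 0.0926). GAD2, DLX1 and RELN had log2 changes of 0.77, 0.62 and 0.78. All 4 had higher levels in every second biopsy than in any first biopsy. How many of all genes did so was not counted, and 40% of all genes were higher in 3 of 3 pairs.

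Genes of presynaptic release gave the largest count among neuronal lists. Of 20 members 15 were higher (28.9% of all genes) and 0 lower at an unadjusted p below 0.05, 14 were higher in 3 of 3 pairs (40% of all genes), and the medians relative to all genes were 0.26, 0.18 and 0.42. SYT1, the calcium sensor of fast release, had 626, 625 and 428 TPM in second biopsies and 229, 331 and 309 TPM in first biopsies (log2 0.94, limma adjusted p = 0.0698). NSF, which recycles the fusion machinery, had 418, 295 and 256 TPM in second biopsies and 147, 177 and 184 TPM in first biopsies. SYT2, the sensor of fast-spiking interneurons and some projection neurons, had 49.3, 6.11 and 15.3 TPM in second biopsies and 10.5, 4.37 and 5.11 TPM in first biopsies, with a high value in X10197.

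The same animal stood out for NEFH, the heavy neurofilament of large axons, with 148, 33.6 and 45.5 TPM in second biopsies and 29.2, 20.8 and 19.5 TPM in first biopsies (log2 1.38, limma adjusted p = 0.0510). It also did for HAPLN4, a link protein of perineuronal nets, with 100 TPM in the second biopsy of X10197 and 26.5 and 41.6 TPM in those of X10198 and X10204, against 36.0, 19.5 and 10.8 TPM in first biopsies (log2 1.24, limma adjusted p = 0.0520). HAPLN1, another link protein, had a log2 change of 0.56. Of the 9 tested genes of the brain matrix list, 2 were higher and 0 lower at an unadjusted p below 0.05, against 28.9% and 2.01% of all genes. The medians relative to all genes were −0.07, 0.12 and −0.32.

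Ion channel and receptor lists were highest in X10197. Potassium channels had medians relative to all genes of 0.79, 0.40 and 0.07, with 13 of 19 members higher (28.9% of all genes) and 1 lower at an unadjusted p below 0.05. KCNA1, a delayed rectifier of axons, had 38.9, 20.2 and 19.1 TPM in second biopsies and 9.80, 10.4 and 10.4 TPM in first biopsies (log2 1.2, limma adjusted p = 0.0520). KCNJ6, a subunit of G protein-gated channels, and KCNA4 had log2 changes of 1.07 and 0.99.

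GABA-A receptor subunits had medians relative to all genes of 0.33, 0.16 and 0.10, with 6 of 13 higher (28.9% of all genes) and 0 lower at an unadjusted p below 0.05. GABRA4, an alpha subunit, had a log2 change of 1.47 (limma adjusted p = 0.0708). Ionotropic glutamate receptors had medians of 0.14, 0.12 and 0.05, with 5 of 15 higher and 1 lower at an unadjusted p below 0.05, near the 28.9% of all genes that were higher. Among NMDA receptor subunits, GRIN2B had 11.7, 10.1 and 2.08 TPM in second biopsies and 1.67, 1.54 and 1.41 TPM in first biopsies, GRIN2A a log2 change of 0.81 and GRIN2C one of −0.60. The second biopsy of X10204 thus held much less GRIN2B than the other second biopsies, and the change was 2.19 without that animal (limma adjusted p = 0.0167).

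Neuropeptides had medians relative to all genes of 0.34, 0.03 and 0.53, with 7 of 13 tested members higher (28.9% of all genes) and 0 lower at an unadjusted p below 0.05. CRH, the corticotropin-releasing hormone of stress responses and of cortical interneurons, had 35.1, 26.6 and 39.8 TPM in second biopsies and 19.9, 16.4 and 16.2 TPM in first biopsies (log2 0.90, limma adjusted p = 0.0686). NPY had 52.0, 51.6 and 56.1 TPM in second biopsies and 29.9, 35.8 and 19.7 TPM in first biopsies. ADCYAP1, the peptide PACAP, had a log2 change of 1.13. For these 3 genes the groups did not overlap, a trait whose share among all genes was not counted.

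Microglial and astrocyte markers lay below all genes, microglial ones more evenly. Of 15 microglial markers 8 were lower and 1 higher at an unadjusted p below 0.05, against 2.01% and 28.9% of all genes. In 3 of 3 pairs 9 were lower (7.68% of all genes). The medians relative to all genes were −0.71, −0.41 and −0.70, the summed level was 253 to 297 TPM in second and 320 to 438 TPM in first biopsies, and no member was at 0 in all 6 libraries. C1QA, a chain of the complement component C1q, had 37.3, 32.3 and 38.2 TPM in second biopsies and 59.3, 44.4 and 61.6 TPM in first biopsies (log2 −0.59, limma adjusted p = 0.0708). C1QC, another chain, had a log2 change of −0.67. C1QA, C1QC and C3AR1 were each lower in 3 of 3 pairs. GPR34, a receptor of microglia, had 6.94, 9.18 and 8.04 TPM in second biopsies and 14.6, 14 and 21.7 TPM in first biopsies (log2 −0.95, limma adjusted p = 0.0648).

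Of 13 astrocyte markers 3 were lower and 0 higher at an unadjusted p below 0.05, against 2.01% and 28.9% of all genes. In 3 of 3 pairs 7 were lower (7.68% of all genes), and the medians relative to all genes were −0.68, −0.38 and −0.12. GLUL, glutamine synthetase, had 1081, 1150.4 and 1002 TPM in second biopsies and 1433, 1332 and 1321 TPM in first biopsies (log2 −0.34, limma adjusted p = 0.0808). SLC1A3, a glutamate transporter, and ALDH1L1 had log2 changes of −0.37 and −0.34. GFAP, the intermediate filament of astrocytes, had 600, 599 and 521 TPM in second biopsies and 705, 333 and 403 TPM in first biopsies, with overlap (log2 0.33 ± 0.39 SE, limma adjusted p = 0.578). Among reactive glia genes, NES had a log2 change of −0.71, and TIMP1 had 47.9 TPM in the second biopsy of X10197 against 11.2 TPM in its first biopsy.

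Myelin genes followed the animal. Their median relative to all genes was 0.17 in X10197, 1.28 in X10198 and −0.05 in X10204. At an unadjusted p below 0.05, 2 of 13 tested members were higher and 0 lower, against 28.9% and 2.01% of all genes. TF was at 0 in all 6 libraries, and the summed level was 1858 to 2795 TPM in second and 1166 to 1691 TPM in first biopsies. UGT8, which makes the galactolipids of myelin, and CLDN11, its tight junction protein, had log2 changes of 1.18 and 1.0, and both were higher in the second biopsies of X10197 and X10198 and not in that of X10204. Without that animal their changes were 1.79 and 1.5 (limma adjusted p = 0.0213 and 0.0348). MBP had 845, 1383 and 1228 TPM in second biopsies and 1087, 731 and 849 TPM in first biopsies (log2 0.36 ± 0.49 SE, limma adjusted p = 0.632). Of 9 markers of oligodendrocyte precursors, 0 were higher or lower at an unadjusted p below 0.05, and the medians relative to all genes were −0.57, −0.10 and −0.33.

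Vessel markers differed between animals as well. The endothelial median relative to all genes was −0.23 in X10197, −0.16 in X10198 and −1.25 in X10204. At an unadjusted p below 0.05, 1 of 12 members was lower and 0 higher, against 2.01% and 28.9% of all genes. MFSD2A, a lipid transporter of the blood-brain barrier, had 18.7, 20.9 and 13.1 TPM in second biopsies and 27.1, 30.6 and 22.8 TPM in first biopsies (log2 −0.60, limma adjusted p = 0.0748). CLDN5, the main claudin of that barrier, had 38.6, 33.1 and 11.7 TPM in second biopsies and 47.2, 32.1 and 42.2 TPM in first biopsies, and ABCB1, its efflux pump, a log2 change of −0.63. Mural and fibroblast markers had medians of 0.87, −0.22 and −0.85, and COL1A2, a collagen chain of meningeal fibroblasts, stood at 45.4 TPM in the second biopsy of X10197 and between 1.01 and 7.36 TPM in the 5 other libraries. PDGFRB of pericytes had a log2 change of −0.36.

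Heat shock proteins shifted evenly. Of 15 tested members 10 were higher (28.9% of all genes) and 0 lower at an unadjusted p below 0.05, 11 were higher in 3 of 3 pairs (40% of all genes), and the medians relative to all genes were 0.36, 0.26 and 0.35. STIP1, which links the chaperones HSP70 and HSP90, had 111, 90.2 and 89.0 TPM in second biopsies and 57.8, 56.2 and 57.4 TPM in first biopsies (log2 0.74, limma adjusted p = 0.0510). HSPA8, the constitutive HSP70, had 1349, 981 and 1015 TPM in second biopsies and 625, 672 and 683 TPM in first biopsies, and HSPH1 a log2 change of 0.91. First biopsies differed little between animals for STIP1 and HSPA8.

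Genes of endoplasmic reticulum stress had medians relative to all genes of 0.18, −0.07 and 0.28, with 6 of 11 tested members higher (28.9% of all genes) and 0 lower at an unadjusted p below 0.05. HSPA5, the chaperone BiP, had 182, 133 and 143 TPM in second biopsies and 97.7, 98.3 and 97.5 TPM in first biopsies (log2 0.62, limma adjusted p = 0.0686). XBP1 and HSP90B1 had log2 changes of 0.57 and 0.42.

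The glucocorticoid list, which holds PDK4, had medians relative to all genes of 0.22, 0.10 and −0.61. At an unadjusted p below 0.05, 3 of 12 tested members were higher and 3 lower, against 28.9% and 2.01% of all genes. DDIT4, an inhibitor of mTOR signalling that glucocorticoids induce, had 18.7, 25.4 and 24.2 TPM in second biopsies and 50.8, 43.7 and 43.0 TPM in first biopsies (log2 −0.99, limma adjusted p = 0.0686). NR3C1, the glucocorticoid receptor, had 35.4, 26.2 and 20.5 TPM in second biopsies and 9.46, 13.6 and 15.0 TPM in first biopsies (log2 1.04, limma adjusted p = 0.0698). PDK4 and DDIT4 were thus lower, and the receptor higher, in every second biopsy than in any first biopsy. How often this holds among all genes was not counted.

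Other lists are given by their counts, to be read against 28.9% higher and 2.01% lower among all genes. Splicing kinases and SR proteins had 11 of 16 members higher and 0 lower at an unadjusted p below 0.05, with medians relative to all genes of 0.34, 0.19 and 0.08. CLK1, a kinase that acts on SR proteins, had 122, 120 and 91.3 TPM in second biopsies and 32.5, 44.9 and 65.9 TPM in first biopsies (log2 1.25, limma adjusted p = 0.0510), and CLK4 and TRA2A log2 changes of 0.84 and 0.59. Cholesterol synthesis had 6 of 14 higher and 0 lower and medians of −0.14, 0.07 and 0.14, with log2 changes of 0.52 for SQLE and 0.60 for SC5D, both enzymes of that pathway.

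Nuclear subunits of the respiratory chain had 5 of 10 tested members higher and 0 lower at an unadjusted p below 0.05 and medians relative to all genes of −0.02, −0.12 and 0.31. ATP5A1 and NDUFA9 had log2 changes of 0.43 and 0.38, while the mitochondrially encoded subunits took a smaller share of the TPM in every second biopsy. The hypoxia and glycolysis list had 5 of 12 higher and 0 lower and medians of 0.12, 0.08 and 0.01, with log2 changes of 0.62 for the glucose transporter SLC2A3, 0.48 for VEGFA and 0.41 for PFKFB3.

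Interferon-stimulated genes had medians relative to all genes of 0.13, −0.17 and −0.55, with 3 of 15 tested members higher and 1 lower at an unadjusted p below 0.05. IFI27 had a log2 change of −0.71 and IFI6 one of 0.49. Wound and matrix genes had 2 of 15 higher and 1 lower. SPP1, osteopontin, had 141, 84.4 and 89.8 TPM in second biopsies and 54.1, 42.7 and 65.3 TPM in first biopsies (log2 0.93, limma adjusted p = 0.0698), and MMP9, a protease of neutrophils among other cells, had 0.296, 0.287 and 0.377 TPM in second biopsies and 0.857, 2.26 and 15.6 TPM in first biopsies.

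Genes of the p53 and apoptosis list had 3 of 14 members higher and 1 lower at an unadjusted p below 0.05. PMAIP1, the pro-apoptotic protein NOXA, had 1.29, 1.41 and 0.614 TPM in second biopsies and 3.57, 2.45 and 14.7 TPM in first biopsies (log2 −1.60, limma adjusted p = 0.0708), whereas anti-apoptotic BCL2 and the cell cycle inhibitor CDKN1A had log2 changes of 0.70 and 0.54. Genes of dividing cells were scarce, with 3 of 10 tested. AURKA and CCNB1, which drive mitosis, stood at or below 4.65 TPM in every library and had log2 changes of 0.75 and 0.60. Of markers of other brain regions, TCF7L2 had a log2 change of 0.31 and TTR, of the choroid plexus, stood at 0 to 4.08 TPM.

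**Figure D4:**
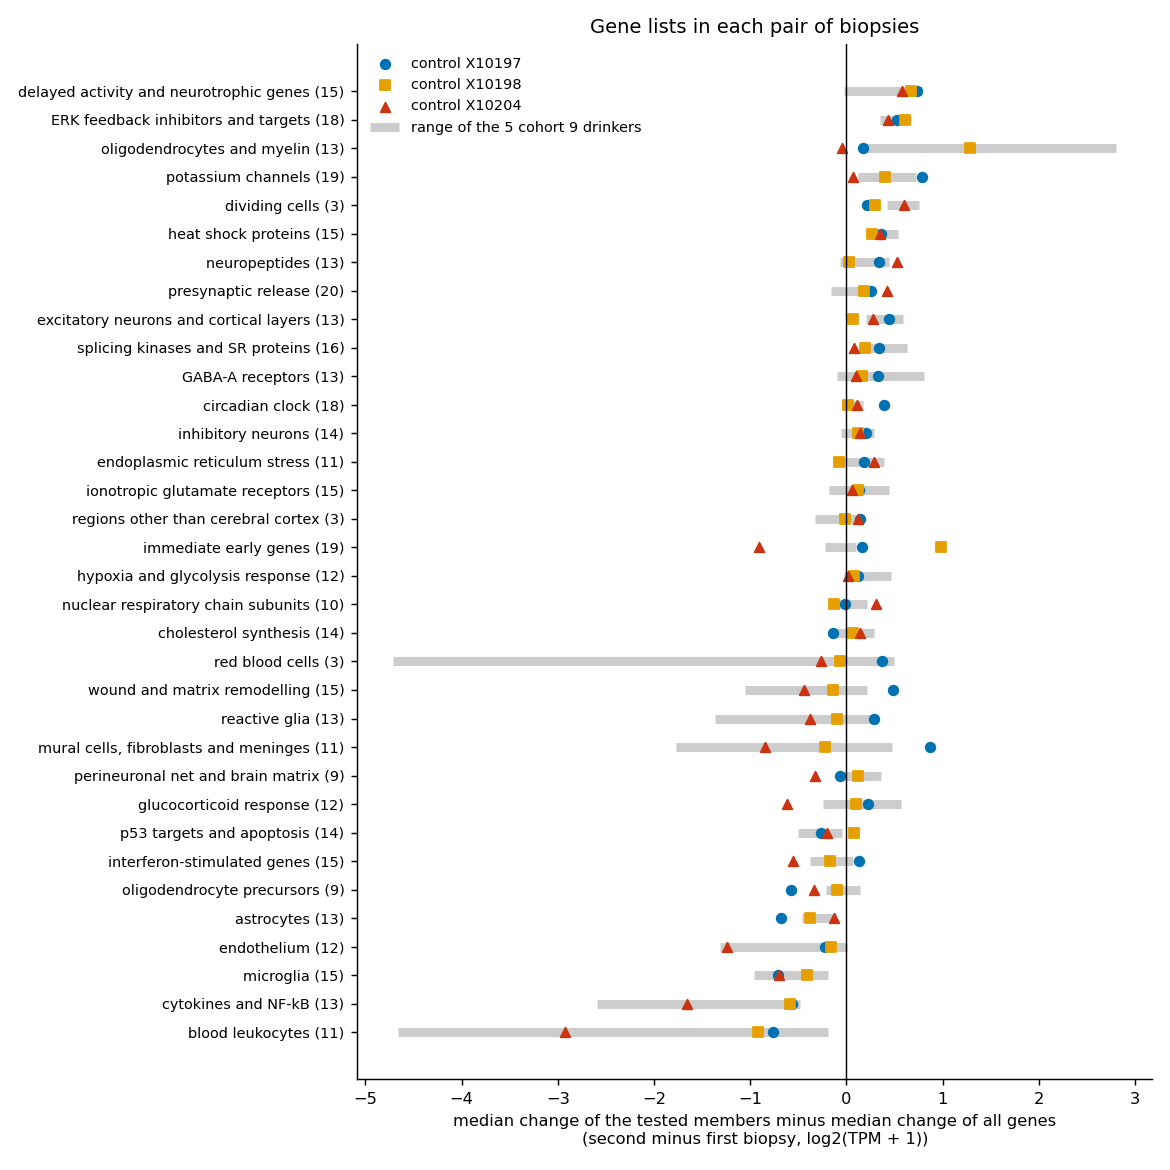
Median change of the tested members of each gene list minus the median change of all genes in the same pair (log2(TPM + 1), second minus first biopsy), as 1 point per control animal, with the number of members tested in brackets and the range of the 5 cohort 9 drinkers as a grey bar. Delayed activity genes (0.58 to 0.73) and ERK feedback genes (0.43 to 0.60) lie close together across the 3 controls, whereas immediate early genes spread from −0.91 to 0.99.

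The drinkers of cohort 9 were sampled in the same way and carry the same RNA code, so they show which of these changes are also found with ethanol. No gene passed the test of a difference in change between controls and drinkers. limma called 0 of 15685 genes (0%), with 225 at an unadjusted p below 0.05 and a smallest adjusted p of 0.9999, and limma-voom on the recovered reads called 0 too. In the drinkers, 31% of genes were called higher and 5.41% lower, and all 8 higher calls of the controls were among them, with the same sign in each of 5 drinkers. Of the 7 lower calls, 6 were called lower and had that sign in each of 5 drinkers. These counts are to be read against the 2 shares of all genes, and the share with 1 sign in all drinkers was not counted. Both sets of calls use the same estimate of spread, to which the drinkers contribute. A gene with uneven changes among drinkers was thus less likely to be called in controls, so the drinkers' calls and signs are not independent support.

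PDK4 was the exception. Its change was −1.25 in controls, between −1.46 and −0.97 in single animals, and −0.13 in drinkers, between −0.48 and 0.24. The difference was −1.11 ± 0.22 SE with an unadjusted p of 0.000286, the smallest of all genes, and a limma adjusted p of 0.9999. NR1D1 had a change of 0.60 in controls and −0.28 in drinkers (unadjusted p = 0.00199), and CIART, a repressor of the clock, had 0.01 in controls and −0.77 in drinkers (unadjusted p = 0.00263), with the same limma adjusted p of 0.9999. CIART had 12.7, 12.5 and 9.82 TPM in the controls' second biopsies and 10.1, 16.8 and 8.90 TPM in their first biopsies. DDIT4, which stands in the glucocorticoid list with PDK4 but is not among the smallest p, had a change of −0.99 in controls and −0.23 in drinkers. Its difference of −0.76 had a limma adjusted p of 0.9999. NR3C1 and GLUL of the same list had differences of 0.10 and −0.06.

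ERK feedback inhibitors had list medians relative to all genes between 0.35 and 0.67 in the 5 drinkers, beside 0.43 to 0.60 in the 3 controls. Delayed activity genes ranged from −0.02 to 0.78 in drinkers, beside 0.58 to 0.73 in controls. Microglial markers ranged from −0.96 to −0.19 in drinkers, beside −0.71 to −0.41 in controls, and leukocyte markers from −4.66 to −0.19, beside −2.93 to −0.76. Presynaptic genes ranged from −0.16 to 0.27 in drinkers, beside 0.18 to 0.42 in controls. Except for presynaptic release, where 1 control lay above the highest drinker, controls lay within the drinkers' range for these lists. That was not so for every list. Immediate early genes ranged from −0.23 to 0.10 in drinkers, while X10197, X10198 and X10204 had 0.16, 0.99 and −0.91. Oligodendrocyte precursors ranged from −0.21 to 0.14 in drinkers, beside −0.57, −0.10 and −0.33 in those controls. Single controls also lay outside the drinkers' range in the glucocorticoid, clock, astrocyte and mural lists, among others. The differences of these lists were not tested.

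**Figure D5:**
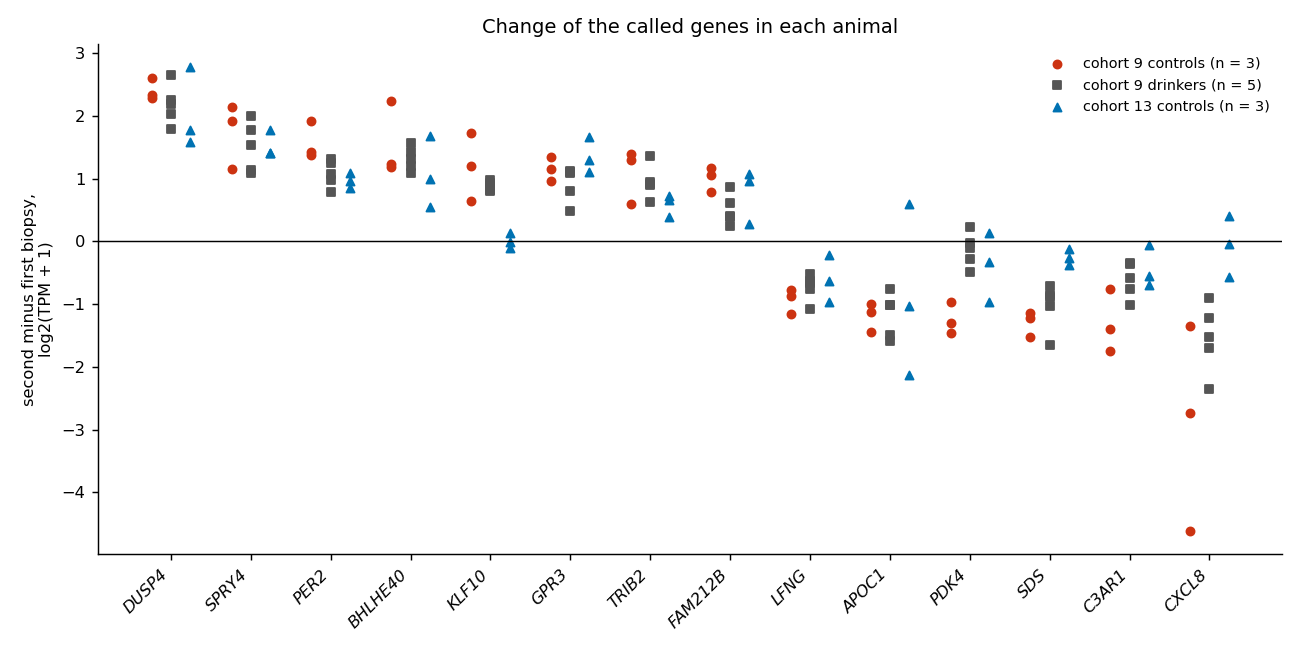
Change of the 14 called genes with a symbol (log2(TPM + 1), second minus first biopsy) in each cohort 9 control (n = 3), cohort 9 drinker (n = 5) and cohort 13 control (n = 3). DUSP4 ranges from 2.29 to 2.60, from 1.80 to 2.66 and from 1.59 to 2.78 in these animals, PDK4 from −1.46 to −0.97, from −0.48 to 0.24 and from −0.96 to 0.13.

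The 3 controls of cohort 13 also had no ethanol, but their libraries carry other RNA codes and were deeper, with 35.3 to 43.1 M reads. Cohort, RNA code and depth cannot be told apart. In X10232, a control of cohort 13, the first and second biopsies carry different RNA codes. Biopsy and RNA code cannot be told apart in that animal, and its changes enter the cohort 13 values below. The other controls of cohort 13, X10233 and X10234, have the same code in both biopsies. In the fit of all 32 libraries, limma called 0 of 15324 genes (0%) as different in change between the controls of cohort 9 and those of cohort 13, with 1375 at an unadjusted p below 0.05, a smallest adjusted p of 0.531, and 0 calls by limma-voom. Without X10198 the count was 5, and without the animals of mixed RNA codes it was 0. In the cohort 13 controls themselves 1 gene was called higher (0.00653%) and 0 lower (0%), and that gene was DUSP4, with a change of 2.05. Its change was 2.78 in X10232, 1.78 in X10233 and 1.59 in X10234.

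The 8 higher calls of cohort 9 all had a positive change in cohort 13 controls, in every animal for 7 of them. KLF10 was the exception, with 0.01 and 1 of 3 animals higher, beside 1.19 in cohort 9. SPRY4 and GPR3 had changes of 1.54 and 1.36 there, PER2 and BHLHE40 of 0.97 and 1.07. The 7 lower calls had a negative change, in every animal for 4 of them. The shares of all genes with a positive or negative change in cohort 13 controls were not counted, so these signs have no background to be read against. CXCL8 had −0.07 in cohort 13 controls beside −2.90 in cohort 9, a difference in the 32-library fit of −2.83 with an unadjusted p of 4.72e-05, the smallest of all genes, and a limma adjusted p of 0.531. Leukocyte markers had list medians relative to all genes between −0.38 and 0.30 in cohort 13 controls, beside −2.93 to −0.76 in cohort 9. Immediate early genes had medians between 0.42 and 1.0 there, beside −0.91 to 0.99. Delayed activity genes, the list with the highest mean in cohort 9 controls, had 0.01 to 0.31 there, beside 0.58 to 0.73. ERK feedback genes had 0.39 to 0.62 there, beside 0.43 to 0.60. The differences of these lists between cohorts were not tested.

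The authors' deposited table gives a comparison of all 6 control animals, which includes these 6 libraries and is not independent of them. At an FDR below 0.05 the authors' deposited table holds 196 higher and 140 lower genes. In the authors' deposited table DUSP4 has a log2 fold change of 2.67, PER2 of 1.30, BHLHE40 of 1.19 and PDK4 of −1.11. The authors' deposited table also has a shorter list of 39 higher and 38 lower control genes, which holds FAM212B and PDK4 of the called genes above. Called genes outside the shorter list can still have a low FDR in the authors' deposited table. It was 8.03e-45 for DUSP4, 1.08e-22 for SPRY4, 5.45e-18 for PER2 and 1.73e-12 for BHLHE40. Of the called genes with a symbol, KLF10 (0.230) and CXCL8 (0.0556) had an FDR above 0.05 there. Within that shorter list, the largest rises among genes with a symbol were PRR15, CDR1 and NEFH, and the largest falls RPE65, GPR34 and PDK4. In cohort 9 controls alone, PRR15 had 2.44, 1.42 and 2.16 TPM in second biopsies and 0.527, 0.715 and 0.722 TPM in first biopsies. CDR1 had 42.0, 35.7 and 22.3 TPM in second biopsies and 10.2, 10.2 and 9.33 TPM in first biopsies (log2 1.61, limma adjusted p = 0.0520), and RPE65 had a log2 change of −0.59.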

How the data were processed

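Gene expression in biopsies of area 46 was measured by RNA sequencing, with unstranded, poly-A selected, single-end libraries per the labels' protocols, so reads of a gene and of its antisense partner are not separated. DESeq2, HTSeq 0.6.1p1 and STAR 2.5.2b are named per the submitters' processing notes. Neither their roles nor a genome build or annotation is given in the sources used here. Each library has 1 column of deposited TPM values, per the file headers. Beside them, per the file headers, stand the deposited log2 fold changes and adjusted p-values of the authors' control comparison, which cover the controls of both cohorts.

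From the deposited TPM, log2(TPM + 1) was computed, genes with a mean of at least 1 TPM over the 16 cohort 9 libraries were kept (15685 of 29958), and limma-trend (limma 3.58.1, R 4.3.3) was fitted with the animal as a block, 1 change for controls and 1 for drinkers, on 6 residual degrees of freedom. A gene was called where its Benjamini-Hochberg adjusted p was below 0.05. The controls' change minus the drinkers' change came from the same fit. The contrast with cohort 13 controls came from a fit of all 32 libraries (15324 genes, 12 residual degrees of freedom). In that fit 3 animals have biopsies of mixed RNA codes, among them the cohort 13 control X10232. The test named first in the design needs counts, so for TPM the limma test named second was used.

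The pairing comes from the animal numbers in the sample titles. Across genes, deviations from the group means had r of 0.42, 0.44 and 0.16 between an animal's own biopsies and from −0.37 to 0.01 between those of different animals. Nothing in the labels says that more than 1 piece of tissue was taken per biopsy, so p-values measure a spread between animals. That spread is pooled over the 3 controls and 5 drinkers, so a printed SE is not that of the controls alone. With only the 6 control libraries fitted, APOC1, BHLHE40, DUSP4, PER2, SDS and SPRY4 kept their calls. CXCL8, C3AR1, PDK4, LFNG, GPR3, TRIB2, KLF10 and FAM212B lost theirs in that fit.

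The steps between TPM values gave back whole reads for 29437 of the 29437 genes detected in at least 2 libraries (100%, with a tolerance of 1e-06 reads), which gave the depth and the counts for limma-voom. Depth over all 32 libraries was 14.2 to 43.5 M reads. The scripts were tested on simulated data.

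The animals and the 34 gene lists (503 symbols, 477 in the table, 436 tested, 3 in more than 1 list) were chosen with earlier results of these data known, so no list is independent evidence of its direction. Named genes are the called genes by size and by p, up to 3 members per list with the smallest p, the 3 smallest p of each difference, 6 marker genes and the 3 largest changes per direction of the authors' shorter list of control genes. Genes without a symbol were counted and not named, and some genes that the rule names are not reported here. Log2 differences of low genes understate their change. Alternatives were other pseudocounts and filters, median scaling, TPM without mitochondrially encoded genes, no animal block, robust empirical Bayes, limma-voom, other sets of libraries, leaving out each animal and, added after the data were seen, adjusted p thresholds of 0.06 and 0.1. No sequences are printed. Figures come from matplotlib 3.10.9, and tables from pandas 2.3.3 and numpy 2.4.6 under Python 3.11.15.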

Additional observations from a re-analysis of the deposited data

Results flagged for a closer look

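For 5 genes, every control of cohort 9 changed one way between biopsies and every control of cohort 13 the other way. S100A9, of neutrophils and monocytes, had a log2 change of −3.94 in cohort 9 controls and 0.64 in cohort 13 controls, a difference in the 32-library fit of −4.58 (limma adjusted p = 0.531). SLC17A6, a glutamate transporter, had 0.98 and −0.46, a difference of 1.44 (adjusted p = 0.531). SC5D and SQLE, enzymes of cholesterol synthesis, had 0.60 and 0.52 in cohort 9 controls and −0.72 and −0.22 in cohort 13 controls, with differences of 1.32 and 0.74 (adjusted p = 0.531 for each). NR1D2, a clock repressor, had 0.97 and −0.19, a difference of 1.17 (adjusted p = 0.531). None of these differences passed the test over all genes in limma, and cohort, RNA code and depth cannot be told apart.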

How the results depend on the processing

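The direction of the 14 called genes with a symbol was the same under every alternative run, and the count of calls in cohort 9 controls was not. Beside 15 genes (8 higher, 7 lower), it was 46 with a pseudocount of 0.5 (33 higher, 13 lower), 8 with a pseudocount of 5 (5 and 3), 2 without a filter on the mean (2 and 0), 169 at a mean TPM of at least 5 (156 and 13), 53 with median scaling (21 and 32), 41 with robust empirical Bayes (32 and 9) and 69 by limma-voom on recovered reads (47 and 22). Without the replicate block, that is with the paired animals ignored, it was 32 (26 and 6). It was 51 at an adjusted p below 0.06 and 2674 at an adjusted p below 0.1. With each control animal left out in turn it ranged from 1 to 2961, and DUSP4 alone kept its call without X10197. It stayed within 1.5 times the main count without mitochondrially encoded genes (14), with all 32 libraries (13) and with the 6 control libraries only (13), but 11, 8 and 6 of the 15 calls were among those genes. Where the alternative does not show it, the cause was not tested.

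The difference from drinkers gave 0 calls under every alternative run. The difference from cohort 13 controls gave 0 as well, except that it ranged from 0 to 5 with animals left out, with 5 lower without X10198. Changes near 0 turned round. FOS, at 0.13, became −0.16 with median scaling, −0.073 without mitochondrially encoded genes and −0.052 by limma-voom, and ranged from −1.09 to 1.53 with animals left out. CIART, at 0.01, became −0.27, −0.18 and −0.17 and ranged from −0.14 to 0.21. SLC17A7 became −0.017 with median scaling, and HBB ranged from −0.045 to 0.96 with animals left out. Array weights could not be fitted with the animal as a block and gave no value. There are 3 pairs, CXCL8 rests on 4 to 12 reads in second biopsies, and read counts cover counting error only.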
